A study of Solanum lycopersicum with 12 samples.

Results

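The genes that lie around *SlMYB60* on tomato chromosome 10 were followed in leaves of the edited lines *slmyb60Cr1* and *slmyb60Cr2* and of the wild type. The neighbourhood was taken from the locus numbers alone, as the genes of the deposited table from Solyc10g081000 to Solyc10g081990 apart from 1 locus not reported here, and the rule used no measured value. It held 101 of the 33976 genes of the table, *SlMYB60* itself (Solyc10g081490) and 100 neighbours. Of these, 47 lay on the lower-numbered side, down to position −47, and 53 on the higher-numbered side, up to position 54, with *SlMYB60* at position 0. Positions count genes in the order of their locus numbers. Distances in bases were not analysed here. Apart from *SlMYB60*, the table does not pair these identifiers with gene names, so the neighbours are described by identifier or position only, and no role is given to them.

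*SlMYB60* encodes an R2R3-MYB transcription factor. Its counterpart in Arabidopsis, *AtMYB60*, is known for its activity in guard cells, where it takes part in the control of stomatal opening. Genes that lie side by side share a stretch of chromatin and may share regulatory sequence, and an edit aimed at one gene can in principle touch the next when the lost stretch runs past the target. The comparison therefore asked whether the low transcript level of *SlMYB60* in the edited lines was limited to this gene or was also seen in the genes beside it.

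Both lines were made in the cultivar Red Setter (RS) with CRISPR/Cas9 and guides directed at *SlMYB60*. They were homozygous, free of *Cas9*, and each carried 1 edited allele with a deletion inside the gene, so each line represents a single allele. The wild type was unedited Red Setter. Each of the 3 genotypes had 4 libraries, every library was made from leaf discs pooled over 4 plants, and all 12 carry the label of a water stress with 14 days without irrigation. The methods of the study mention no water deficit for the plants used for RNA, and this difference could not be settled here. The table gives TPM (a relative transcript level, scaled for transcript length and to the same total in each library), a unit that keeps no read depth. Of the neighbourhood, 85 genes passed the limit of 0.5 TPM in at least 4 libraries and were tested, 84 neighbours and *SlMYB60*. In the 84 tested neighbours the mean TPM of the wild type was under 1 in 6 genes, from 1 to 10 in 19, from 10 to 100 in 44 and above that in 15, with a median of 25.1. Replicates of the wild type lay close together, with a median coefficient of variation of 9.55% in the neighbours and 11.1% over all 21218 genes tested.

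The edited gene was the only member called lower in either line, by the thresholds given further on. *SlMYB60* had 1.57, 2.10, 2.78 and 2.30 TPM in the *slmyb60Cr1* libraries and 2.19, 2.61, 3.15 and 2.87 TPM in the *slmyb60Cr2* libraries, against 12.9, 12.3, 19.3 and 21.6 TPM in the wild type. All 8 edited libraries lay far below the lowest wild type library. The log2 fold change was −2.85 in *slmyb60Cr1* (SE 0.22, adjusted p = 8.07e-05, limma) and −2.54 in *slmyb60Cr2* (SE 0.22, adjusted p = 2.37e-04, limma). An exact two-sided permutation test gave p = 0.0286 for each line, the smallest value that 4 libraries against 4 allow. By its mean TPM, *SlMYB60* ranked 75th of the 101 members in *slmyb60Cr1* and 76th in *slmyb60Cr2*, against 53rd in the wild type. In bulk leaf RNA, fewer cells of a type and less RNA per cell cannot be told apart. TPM is set by reads along the full length of the reference transcript. The loss of reads from the deleted stretch therefore also lowers it, and the share of the fall that this accounts for was not tested.

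**Figure D1:**
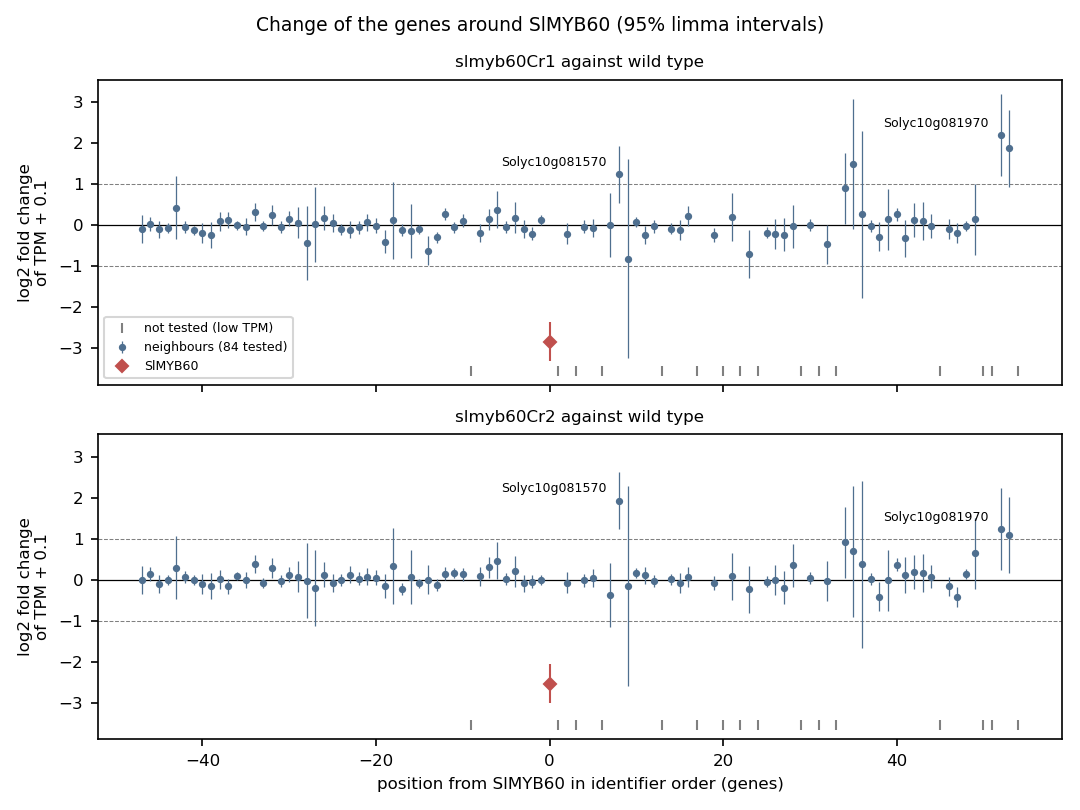
The log2 fold change of TPM + 0.1 against wild type (points, with 95% limma intervals) is plotted by position from *SlMYB60* in the order of locus numbers, for *slmyb60Cr1* above and *slmyb60Cr2* below, with grey ticks for members not tested and dashed lines at −1 and 1. *SlMYB60* stood alone near −2.85 and −2.54, while 76 of 84 neighbours in *slmyb60Cr1* and 78 of 84 in *slmyb60Cr2* lay within 0.5 of 0.

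No neighbour fell at the thresholds used. A gene was called at the thresholds of the study, that is when limma gave an adjusted p below 0.05 together with a log2 fold change beyond 1 in either direction, with p values adjusted by Benjamini-Hochberg over all 21218 genes tested. In *slmyb60Cr1*, 0 of the 84 tested neighbours were called lower and 1 was called higher, 1.19% of them, where 0.669% of all genes tested were called and 0.448% were called higher. In *slmyb60Cr2*, 0 neighbours were again called lower and 1 higher, where 1.4% of all genes tested were called and 1.13% were called higher. Among all genes, 0.222% were called lower in *slmyb60Cr1* and 0.273% in *slmyb60Cr2*, so an absence of lower calls among 84 genes is what this background gives. At an unadjusted p below 0.05 the limma fit held 17 neighbours in *slmyb60Cr1* (20.2%, against 17.1% of all genes) and 15 in *slmyb60Cr2* (17.9%, against 23.1% of all genes).

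Most neighbours were close to their wild type level. The median log2 fold change of the neighbours was −0.03 in *slmyb60Cr1* and 0.02 in *slmyb60Cr2*, beside −0.02 and 0.04 over all genes tested. Their median absolute log2 fold change was 0.13 in *slmyb60Cr1* and 0.10 in *slmyb60Cr2*, beside 0.14 and 0.16 over all genes. In *slmyb60Cr1*, 35 neighbours lay above 0 and 49 below, and in *slmyb60Cr2*, 46 lay above and 38 below. The lowest neighbour reached −0.81 in *slmyb60Cr1* and −0.43 in *slmyb60Cr2*, well short of the −2.85 and −2.54 of *SlMYB60*. The −0.81 belonged to the gene at position 9, near the limit of detection, and the second lowest neighbour in *slmyb60Cr1* reached −0.70. In all, 3 neighbours lay below −0.5 in *slmyb60Cr1* and 0 in *slmyb60Cr2*. The third was the gene at position −14, at −0.62 in *slmyb60Cr1*, with a mean of 3.19 TPM in wild type. Both lines share the 4 wild type libraries, so their values stand side by side and are not independent of each other.

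The 95% intervals set how large a fall of a neighbour the data allow. In each line, the interval of 72 of the 84 neighbours (85.7%) lay wholly between −1 and 1, beside 80.2% of all genes tested in *slmyb60Cr1* and 78.3% in *slmyb60Cr2*. Only 4 neighbours in each line had an interval that reached below −1. In both lines 1 neighbour, at position 9, had an interval wide enough to reach that of *SlMYB60*. This gene was near the limit of detection, with means of 0.814, 1.65 and 1.04 TPM in *slmyb60Cr1*, *slmyb60Cr2* and wild type, and with 0 TPM in 1 library of each edited line.

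**Figure D2:**
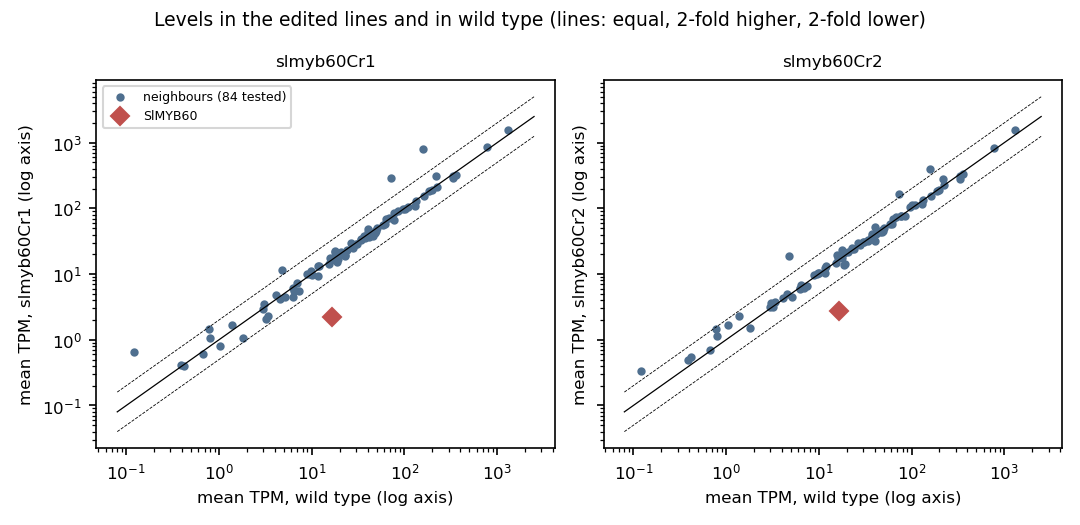
Mean TPM in *slmyb60Cr1* (left) and *slmyb60Cr2* (right) is plotted against mean TPM in wild type for the 84 tested neighbours (circles) and *SlMYB60* (diamond), on log axes, with lines for equal levels and for levels 2-fold higher and 2-fold lower. *SlMYB60*, at 2.19 and 2.7 TPM against 16.5 TPM, is the only member far below the lower line, most neighbours lie near the line of equal levels, and the few beyond the upper line include the genes at positions 8, 35, 52 and 53.

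The genes directly beside *SlMYB60* showed no called change. Solyc10g081480, at position −1, had 83.8, 81.0, 88.4 and 82.3 TPM in *slmyb60Cr1* and 79.5, 72.7, 75.7 and 77.5 TPM in *slmyb60Cr2*, against 81.2, 77.4, 70.02 and 77.6 TPM in wild type. Both lines overlapped the wild type, the *slmyb60Cr1* libraries lay above those of *slmyb60Cr2*, and all 12 values were between 70.02 and 88.4 TPM. Its log2 fold change was 0.13 in *slmyb60Cr1* (95% interval 0.01 to 0.26, adjusted p = 0.249, limma) and −0.00 in *slmyb60Cr2* (−0.12 to 0.12, adjusted p = 0.989). On the other side, Solyc10g081500 at position 1 was hardly present, with means of 0.341, 0.240 and 0.253 TPM in *slmyb60Cr1*, *slmyb60Cr2* and wild type, and was not tested. When all genes above 0 TPM in any library were fitted, its log2 fold change was 0.21 in *slmyb60Cr1* (−0.60 to 1.02) and −0.07 in *slmyb60Cr2* (−0.88 to 0.74), intervals that leave room for a moderate change in either direction.

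The next genes were expressed well enough for closer limits. Solyc10g081470, at position −2, had 34.3, 37.2, 39.1 and 34.7 TPM in *slmyb60Cr1* and 38.4, 38.3, 45.7 and 39.6 TPM in *slmyb60Cr2*, against 39.1, 41.3, 42.2 and 44.9 TPM in wild type. All *slmyb60Cr1* libraries lay below the wild type ones, by little, and the difference missed the threshold (log2 fold change −0.21, adjusted p = 0.170, limma), while the *slmyb60Cr2* libraries overlapped the wild type. Solyc10g081510, at position 2, was among the most abundant members, with means of 289, 314 and 332 TPM in *slmyb60Cr1*, *slmyb60Cr2* and wild type and log2 fold changes of −0.20 (−0.46 to 0.05) and −0.08 (−0.33 to 0.18). Solyc10g081530, at position 4, averaged 181, 183 and 186 TPM in the same order. Its log2 fold changes were −0.04 (−0.19 to 0.12) in *slmyb60Cr1* and −0.02 (−0.18 to 0.14) in *slmyb60Cr2*, which places any change of this gene within a narrow band around 0.

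**Figure D3:**
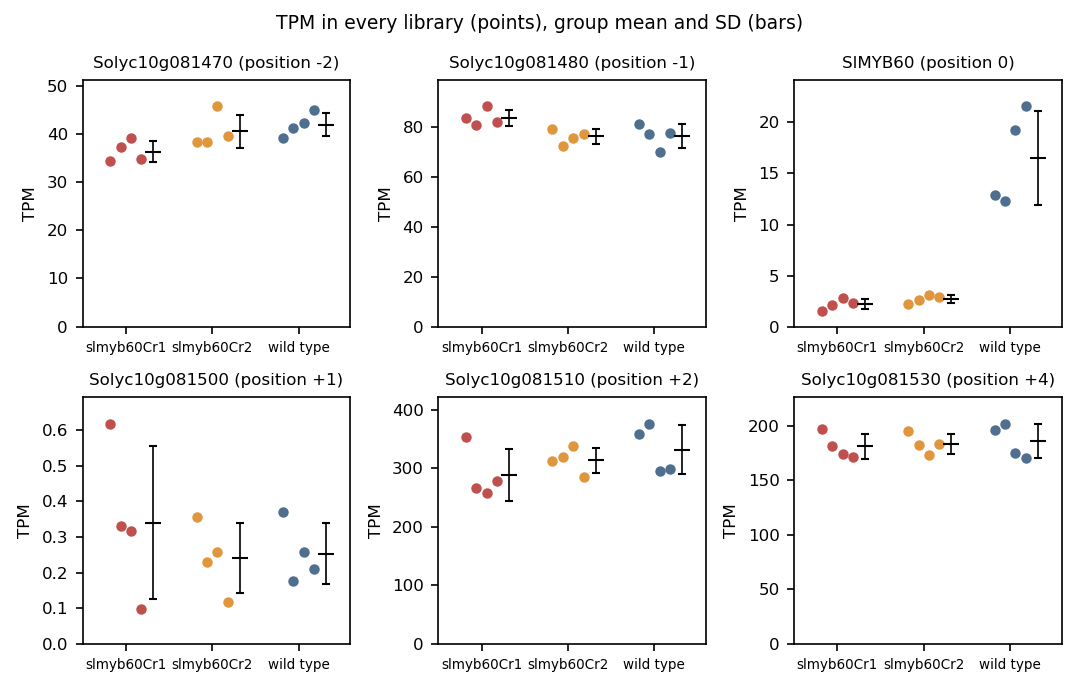
TPM in each of the 4 libraries per genotype (points) is plotted with the group mean and SD (bars) for *SlMYB60*, the genes at positions −2, −1, 1 and 2, and the gene at position 4, each panel with its own axis from 0. For *SlMYB60* the edited libraries lie at 1.57 to 3.15 TPM and the wild type at 12.3 to 21.6 TPM, and in the other panels each line overlaps the wild type except for *slmyb60Cr1* at position −2.

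The remaining close neighbours were not called either. Solyc10g081440, Solyc10g081450 and Solyc10g081460, at positions −5 to −3, had log2 fold changes of −0.04, 0.18 and −0.10 in *slmyb60Cr1* and 0.02, 0.20 and −0.09 in *slmyb60Cr2*, with no call. Solyc10g081540, at position 5, averaged 9.67, 10.5 and 10.1 TPM in *slmyb60Cr1*, *slmyb60Cr2* and wild type. Solyc10g081560, at position 7, was variable within every group, with 23.2 to 68.9 TPM in *slmyb60Cr1*, 20.4 to 47.2 TPM in *slmyb60Cr2* and 28.8 to 47.1 TPM in wild type, and its intervals of −0.77 to 0.77 and −1.14 to 0.41 were wide. Solyc10g081520, at position 3, stayed under 0.24 TPM throughout and had a log2 fold change of −0.67 in *slmyb60Cr1* (adjusted p = 0.293) and −0.56 in *slmyb60Cr2* (adjusted p = 0.313) in the limma fit of all genes above 0 TPM. It was listed at 0 in 1 library of each edited line, and at such levels a fall cannot be told from none. At position 6, the gene was listed at 0 TPM in all 12 libraries.

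The size of the changes did not decline with distance from *SlMYB60*. Among the 10 genes at positions 1 to 5 on either side, 8 were tested, with log2 fold changes from −0.21 to 0.18 in *slmyb60Cr1* and from −0.09 to 0.20 in *slmyb60Cr2*. Their median was −0.06 in *slmyb60Cr1* and −0.01 in *slmyb60Cr2*. At positions 6 to 15 the medians over 17 tested genes were −0.06 and 0.08, and farther out the medians over 59 tested genes were −0.02 and 0.03. The median absolute log2 fold change was 0.12, 0.14 and 0.13 from the nearest to the farthest band in *slmyb60Cr1*, and 0.05, 0.13 and 0.11 in *slmyb60Cr2*. The nearest band thus had no larger median change than the distant ones. Across the 84 neighbours, absolute log2 fold change and distance in gene order had a Spearman rho of −0.02 in *slmyb60Cr1* and 0.16 in *slmyb60Cr2*, and a Pearson r of 0.17 and 0.16. These are descriptions across genes that share libraries, not replicates.

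The same was seen library by library. Relative to the wild type mean, the median neighbour lay between −0.06 and 0.07 on the log2 scale in every edited library, while *SlMYB60* lay between −3.27 and −2.31. Summed over the 20 genes within 10 places of *SlMYB60*, the level was 1106 ± 87.3 TPM in *slmyb60Cr1* and 1142 ± 39.2 TPM in *slmyb60Cr2*, against 1147 ± 65.0 TPM in wild type (SD, n = 4 each), differences within the spread between replicates. Summed over all 100 neighbours it was 7561 ± 726 TPM in *slmyb60Cr1* and 7116 ± 492 TPM in *slmyb60Cr2*, against 6467 ± 188 TPM in wild type. All *slmyb60Cr1* libraries (6843 to 8533 TPM) were above those of the wild type (6309 to 6726 TPM), and the *slmyb60Cr2* libraries overlapped them. Without the pair at positions 52 and 53, described further on, the sums were 6475 ± 153 and 6557 ± 205 TPM, against 6236 ± 166 TPM, and the libraries of the 3 genotypes overlapped.

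**Figure D4:**
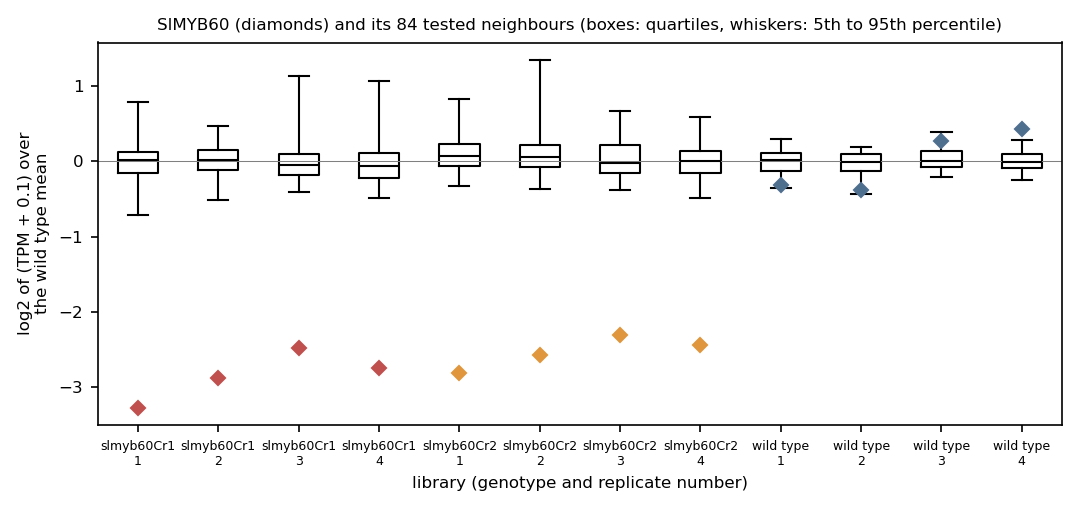
For each of the 12 libraries, the log2 ratio of TPM + 0.1 to the wild type mean is plotted for *SlMYB60* (diamonds) and for the 84 tested neighbours (boxes for the quartiles with the median line, whiskers for the 5th to 95th percentile). The boxes stay around 0 in all libraries, and the diamonds of the edited libraries lie between −3.27 and −2.31.

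The largest changes among the neighbours were rises. Solyc10g081570, at position 8, had 6.74, 13.6, 10.5 and 15.5 TPM in *slmyb60Cr1* and 11.8, 18.3, 29.8 and 15.6 TPM in *slmyb60Cr2*, against 4.00, 3.46, 6.37 and 5.18 TPM in wild type. All 8 edited libraries lay above the highest wild type library, although the lowest of *slmyb60Cr1* did so by little. The log2 fold change was 1.92 in *slmyb60Cr2* (SE 0.32, 95% interval 1.22 to 2.62, adjusted p = 0.00774, limma), a called rise. In *slmyb60Cr1* it was 1.24 (0.54 to 1.94, adjusted p = 0.0741, limma), which missed the adjusted p. The rise in *slmyb60Cr2* was called in all 12 fits that left out 1 library, with log2 fold changes from 1.67 to 2.12 and adjusted p from 0.0044 to 0.027. The genes tested next to it, at positions 7, 9 and 10, were not called in either line.

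Solyc10g081970 stood near the far end of the interval, at position 52. It had 306, 649, 861 and 1367 TPM in *slmyb60Cr1* and 400, 684, 258 and 228 TPM in *slmyb60Cr2*, against 174, 101, 218 and 139 TPM in wild type. The edited libraries were all above the wild type ones but spread widely, and the lowest *slmyb60Cr2* library was close to the highest of the wild type. The log2 fold change was 2.19 in *slmyb60Cr1* (95% interval 1.19 to 3.20, adjusted p = 0.0400, limma), a called rise, and 1.23 in *slmyb60Cr2* (0.22 to 2.24, adjusted p = 0.134), which was not called. The call in *slmyb60Cr1* was fragile. Among the 12 fits that left out 1 library it was kept in 4, with adjusted p from 0.010 to 0.108, and it was lost without any 1 of the wild type libraries, without *slmyb60Cr1* replicate 2, 3 or 4, and without *slmyb60Cr2* replicate 1.

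Its neighbour Solyc10g081980, at position 53, followed the same libraries. It had 123, 248, 311 and 481 TPM in *slmyb60Cr1* and 181, 279, 114 and 89.9 TPM in *slmyb60Cr2*, against 87.9, 52.2, 86.3 and 63.6 TPM in wild type. The log2 fold change was 1.87 in *slmyb60Cr1* (adjusted p = 0.0522, limma) and 1.09 in *slmyb60Cr2* (adjusted p = 0.150), and neither was called. The ratio of Solyc10g081970 to Solyc10g081980 stayed between 1.93 and 2.84 over the 12 libraries, so both genes were high and low together. Whether their transcripts are alike enough to share reads was not tested. By mean TPM, Solyc10g081970 was the 3rd of the 101 members in both edited lines and the 11th in wild type.

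**Figure D5:**
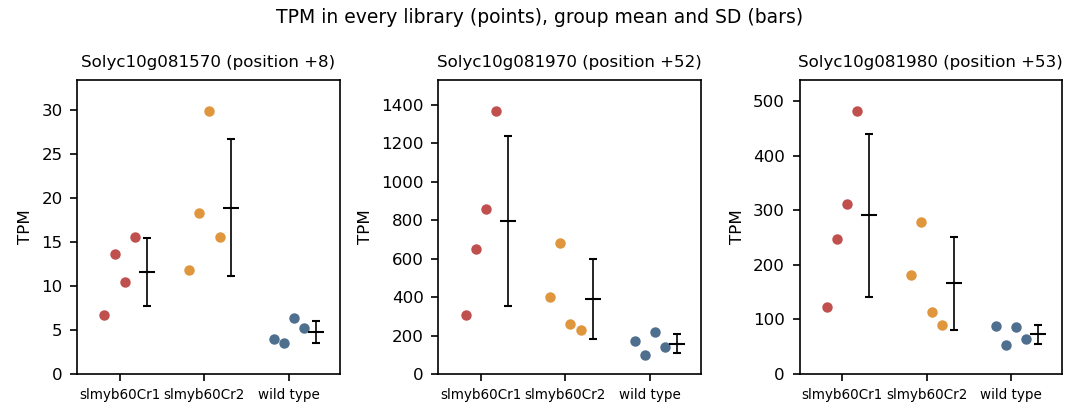
TPM in each of the 4 libraries per genotype (points) is plotted with the group mean and SD (bars) for Solyc10g081570, Solyc10g081970 and Solyc10g081980, each panel with its own axis from 0. The edited libraries lie above the wild type ones in all 3 panels, with the widest spread in *slmyb60Cr1* for the last 2 genes.

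Smaller differences passed the adjusted p alone. In *slmyb60Cr1* this rule held 1 higher neighbour, Solyc10g081970, and 1 lower neighbour, or 2.38% of the tested neighbours, where 1.69% of all genes tested passed, 0.806% higher and 0.881% lower. The lower one was Solyc10g081350, at position −13, with 9.27, 9.80, 9.28 and 9.19 TPM in *slmyb60Cr1* and 11, 10.6, 10.1 and 10.4 TPM in *slmyb60Cr2*, against 12.1, 11, 11 and 12.2 TPM in wild type. Its fall in *slmyb60Cr1* was small (log2 fold change −0.30, adjusted p = 0.0406, limma). It passed in 1 of the 12 fits that left out 1 library, and in 8 of all 21 alternative fits. In *slmyb60Cr2* the value was −0.13 (adjusted p = 0.242), and it passed in 1 of the 21 alternative fits.

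In *slmyb60Cr2* the adjusted p alone held 3 higher neighbours and 1 lower neighbour, or 4.76%, where 7.41% of all genes tested passed, 5.24% higher and 2.18% lower. The higher ones were Solyc10g081570, the gene at position −34 (22.2, 23.1 and 17.8 TPM on average in *slmyb60Cr1*, *slmyb60Cr2* and wild type) and the gene at position 40 (48.9, 52.0 and 40.6 TPM). Their log2 fold changes in *slmyb60Cr2* were 0.38 at position −34 (adjusted p = 0.0427, limma) and 0.36 at position 40 (adjusted p = 0.0154, limma), and in *slmyb60Cr1* 0.33 (adjusted p = 0.124) and 0.27 (adjusted p = 0.0854). Of these, the gene at position 40 passed in all 12 fits that left out 1 library, and the gene at position −34 in 2. Over all 21 alternative fits, the gene at position 40 passed in 21 and the gene at position −34 in 6. The lower one was Solyc10g081910, at position 47, with 16.7, 12.9, 14.8 and 12.9 TPM in *slmyb60Cr2*, against 21.1, 17.5, 18.8 and 19.6 TPM in wild type. Its fall in *slmyb60Cr2* was −0.43 on the log2 scale (adjusted p = 0.0404, limma). It passed in 4 of the 12 fits that left out 1 library, and in 12 of all 21 alternative fits. In *slmyb60Cr1* the value was −0.19 (adjusted p = 0.427). In this fit no neighbour passed either rule in both lines, while 0.405% of all genes were called in both. With the replicate number as a block in the limma fit, Solyc10g081570 was also called in *slmyb60Cr1* (adjusted p = 0.0400), the gene at position 40 passed the adjusted p alone in both lines, and Solyc10g081970 was no longer called in *slmyb60Cr1* (adjusted p = 0.0584).

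Counted by libraries, 11 neighbours in *slmyb60Cr1* did not overlap the wild type, 5 higher and 6 lower (13.1%, where 10.5% of all genes tested did not overlap, 4.63% higher and 5.87% lower). In *slmyb60Cr2* there were 10, 8 higher and 2 lower (11.9%, where 16.4% of all genes did not overlap, 11.4% higher and 4.96% lower). In 4 neighbours the 8 edited libraries were all on the same side of the wild type (4.76%, where 4.95% of all genes did so, 2.73% higher and 2.22% lower), the genes at positions 8, 40, 52 and 53. In each of these 4 the edited libraries were higher, and *SlMYB60* was the only tested member with all 8 below the wild type.

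The edited lines were also compared with each other. *SlMYB60* was 0.31 higher in *slmyb60Cr2* than in *slmyb60Cr1* on the log2 scale and was not called. None of the 84 neighbours was called with limma at the adjusted p alone, where 0.509% of all genes passed and 0.151% passed both thresholds, and 10 had an unadjusted p below 0.05 (11.9%, against 14.5% of all genes). The difference at Solyc10g081570 and at Solyc10g081970 between *slmyb60Cr2* and *slmyb60Cr1* was thus not shown by this test.

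The most abundant members were not called in either line. At position −32 lay the gene with the highest mean of the wild type, which averaged 1537, 1568 and 1295 TPM in *slmyb60Cr1*, *slmyb60Cr2* and wild type. Next came the gene at position −30, which averaged 855, 832 and 768 TPM, and the gene at position −40, which averaged 321, 337 and 362 TPM in the same order. The gene at position −17 averaged 307, 283 and 332 TPM. All of its *slmyb60Cr2* libraries lay below the wild type, with an adjusted p of 0.061 by limma.

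Of the 16 members not tested, 6 were listed at 0 TPM in all 12 libraries, and the highest value of the other 10 in any library was 0.984 TPM. That value belonged to the gene at position 22, which was listed at 0.984 and 0.454 TPM in wild type replicates 1 and 4 and at 0 in wild type replicates 2 and 3 and in all 8 edited libraries. The gene at position 51 was listed at 0.653, 0.379, 0.388 and 0.363 TPM in *slmyb60Cr2* and at 0.424 TPM in 1 *slmyb60Cr1* library, against 0 in the other *slmyb60Cr1* libraries and in all wild type libraries. Levels this low rest on few reads, and TPM does not show how few. Another gene, at position 35, passed the limit narrowly, with means of 0.643, 0.341 and 0.121 TPM in *slmyb60Cr1*, *slmyb60Cr2* and wild type, and its log2 fold changes of 1.49 and 0.69 were not called.

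The adjoining stretches of the chromosome were used as a reference. Of 74 tested genes from Solyc10g080000 to Solyc10g080990, 0 were called at both thresholds in either line with limma, and their medians were −0.06 in *slmyb60Cr1* and 0.03 in *slmyb60Cr2*. Of the 13 genes from Solyc10g082000 to Solyc10g082990, 7 were tested and 0 were called. Over the other 1306 tested genes of chromosome 10, 10 were called higher and 2 lower in *slmyb60Cr1*, and 16 higher and 4 lower in *slmyb60Cr2*. The neighbours, with 1 higher and 0 lower in each line, did not stand apart from these counts, and no test of the difference was made.

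As a check of the tissue, the summed level of the identifiers taken as Rubisco small subunit genes was 3717 to 17393 TPM in *slmyb60Cr1* and 6106 to 22348 TPM in *slmyb60Cr2*, against 9031 to 18707 TPM in wild type, and identifiers taken as ripening fruit markers reached at most 0.129 TPM. These assignments were not in the tables used here. The Rubisco sums varied widely within each genotype, and their part in the values of the neighbours was not tested.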

How the data were processed

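Leaf poly(A) RNA of 12 libraries was sequenced as stranded paired-end reads. The authors trimmed the reads with fastp, quantified the ITAG 4.0 transcripts with Salmon (GC and sequence bias corrected) and deposited TPM for each gene and library, unpooled. The authors used DESeq2 for their own tests. TPM keeps no depth, so no counting interval was computed.

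From the deposited TPM, log2(TPM + 0.1) was fitted with limma 3.58.1 (intensity trend, R 4.3.3) over all 12 libraries with genotype as the factor, for the 21218 genes that reached 0.5 TPM in 4 or more libraries. p values were adjusted by Benjamini-Hochberg over all of them, and calls used an adjusted p below 0.05, with or without a log2 fold change beyond 1. Such fold changes understate the change of low genes. The scripts, in Python 3.11.15 (pandas 2.3.3, scipy 1.17.1, matplotlib 3.10.9), were tested on simulated data. Genes named are *SlMYB60*, the 5 tested genes nearest on each side, every called member, the 5 with the largest mean change and the 5 most abundant in wild type. Genes at positions −15, −14, 1, 3, 6, 9, 10, 22, 38 and 51 were added after their values were seen. Another fruit marker was dropped because the gene table placed its name elsewhere. Members and lists were chosen with earlier results of these data known. The locus left out of the interval still counts as a position. Alternatives changed the libraries in the fit, the replicate block, the TPM limit, the pseudocount, the scaling, the variance model and the distance measure, and left out each library in turn.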

Additional observations from a re-analysis of the deposited data

Results flagged for a closer look

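Among 66 groups of 4 libraries (22 genes in 3 genotypes), 3 had a library far from the others, and chance alone marks about 1 in 20 groups. Solyc10g081350 was at 9.80 TPM in *slmyb60Cr1* replicate 2, where the others lay between 9.19 and 9.28 TPM. The gene at position 40 was at 49.3 TPM in *slmyb60Cr2* replicate 2, against 52.6 to 53.3 TPM in the others. The gene at position −17 was at 367 TPM in wild type replicate 2, against 317 to 325 TPM in the others.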

How the results depend on the processing

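*SlMYB60* was called lower in both lines under all 21 alternatives, from −2.97 to −2.43 in *slmyb60Cr1* and from −2.67 to −2.21 in *slmyb60Cr2*, and no neighbour was called lower at both thresholds under any of them. In *slmyb60Cr1*, 2 members including *SlMYB60* were called, against 1 when only the compared groups were fitted, 1 without the intensity trend and 1 to 4 when 1 library was left out. By the adjusted p alone there were 3, against 1 with only the compared groups, 5 under median of ratios scaling and 1 to 4 with 1 library left out. In *slmyb60Cr2*, 5 passed by the adjusted p alone, against 3 to 5 with 1 library left out. The labels name no batch shared by libraries with the same replicate number, and the main fit did not pair them. Deviations from the genotype means nevertheless correlated between same-number libraries, from −0.05 to 0.44 (mean 0.193, over 0.1 in 8 of 12 pairs). For 4 of 12 libraries the own number correlated best in both other genotypes. What the numbers stand for was not tested. With the replicate block, adjusted p calls over all genes went up to 695 in *slmyb60Cr1*, against 358 without it, and to 2306 in *slmyb60Cr2*, against 1573. Among the members, 5 passed the adjusted p alone in *slmyb60Cr1* and 7 in *slmyb60Cr2*, where the genes at positions −17 and 38, both lower than wild type, were added, while *SlMYB60* was at −2.85 (adjusted p = 8.22e-05, limma) and −2.54 (adjusted p = 1.20e-04, limma).

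The Spearman correlation of absolute change with distance was −0.02 in *slmyb60Cr1*, against −0.038 by locus number, −0.0056 with a pseudocount of 1 and, chosen after seeing the data, −0.072 without the genes at positions 8, 52 and 53. In *slmyb60Cr2* it was 0.16, against 0.124, 0.153 and 0.125. Values near 0 changed sign in 20 instances. Scaling did so for Solyc10g081440 (−0.025, median of ratios) and Solyc10g081540 (−0.042, quantile) in *slmyb60Cr2* and for Solyc10g081560 in *slmyb60Cr1* (−0.00027, quantile), as did a pseudocount of 0.01 for the last (−0.00022). Leaving out 1 library gave −0.018 to 0.048 for Solyc10g081440, −0.044 to 0.027 for Solyc10g081480, −0.059 to 0.022 for Solyc10g081530 and −0.017 to 0.12 for Solyc10g081540 in *slmyb60Cr2*, and −0.077 to 0.0046 for Solyc10g081530 and −0.27 to 0.26 for Solyc10g081560 in *slmyb60Cr1*. The cause was not tested. Read depth, which limits the low genes, is not in TPM.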
